A study of Homo sapiens with 2 samples.

Results

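Cytokines, chemokines and a set of acute-phase and inflammatory genes were examined in H1993 cells, a lung cancer line of human origin, and in derived cells that had become resistant to PHA665752, an inhibitor of the kinase MET. H1993 is known as a line in which MET is amplified, which was not examined here. The genes were taken from the count table by symbol. The 49 listed symbols name 48 genes, since IL8 is the older symbol of CXCL8, and all 48 were among the 18944 genes of the table. RNA was sequenced from 1 library of the resistant derivative and 1 library of the parental H1993 line. The resistant cells were obtained by continuous exposure of H1993 cells to PHA665752, raised from 1 nM to 1 µM, and were then kept in 1 µM. They spent 1 week without drug before experiments, per the labels' protocols. The treatment field of the labels nonetheless reads PHA665752 for the resistant library, against DMSO, a solvent, for the parental library, and does not say whether drug was present at harvest. The labels do not say whether the derivative is a clone or a pool.

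Chemokines are small secreted proteins that attract leukocytes through G protein-coupled receptors. The CXC chemokines that carry a glutamate-leucine-arginine (ELR) motif attract neutrophils. Several interleukins and colony stimulating factors signal through receptor complexes that include the shared chain gp130 or kinases of the JAK family. Ligands of the tumour necrosis factor (TNF) superfamily signal through adaptor proteins of the TNF receptors. Many of these genes are induced by the transcription factor NF-kB in epithelial cells, and tumour cells can secrete them themselves.

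The counts summed to 17086748 in the resistant library and 16723181 in the parental library. Values are raw counts and CPM, which is the count relative to a library size adjusted by the TMM method of edgeR. Each ratio of a single gene divides the resistant by the parental library after 0.5 was added to both counts. Ratios of summed counts and folds against a library at 0 counts had no such addition. The exact 95% intervals cover counting error only, and reads are not independent molecules. With 1 library per group no difference has a replicate check, and the text describes these 2 libraries. In such bulk RNA, fewer cells that express a gene cannot be told apart from less RNA per cell. The epithelial keratin genes KRT8 and KRT18 were abundant in both libraries, at 3394 and 2468 CPM in the resistant and 2666 and 1964 CPM in the parental library. The other 3 epithelial markers were lower in the resistant library. EPCAM, an epithelial adhesion molecule, had 164 CPM in the resistant and 389 CPM in the parental library and was called lower (log2 ratio -1.25), while CDH1 (-0.69) and KRT19 (-0.63) did not pass. The part of these markers in the cytokine differences was not tested. Of the lung adenocarcinoma markers, the lineage factor gene NKX2-1 had 101 counts in the resistant and 70 in the parental library, while NAPSA was at 0 in both.

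Cytokine and chemokine genes were called higher more often than lower in the resistant library. A gene was called when its ratio was at least 2-fold in size and the interval excluded no difference. Of the 48 genes, 15 reached 1 CPM in both libraries. Of these 15, 9 were called higher and 1 was called lower. Over all 11182 genes at 1 CPM or more in both libraries, 7.7% were called higher and 6.61% lower. The 9 higher genes were the chemokine genes CXCL8, CXCL16, CCL28 and CCL26, the cytokine genes LIF, CLCF1, IL15 and CSF1, and PTGS2, which encodes the inducible cyclooxygenase. The lower gene was TNFSF15, a TNF superfamily ligand.

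Another 9 genes reached 1 CPM in the resistant library only. These were IL6, CXCL1, CXCL2, CXCL3, IL32, IL7, SAA1, C3 and LCN2, and all 9 were called higher. They entered the comparison only through the library in which they were high, so their number supports nothing about the members. No member reached 1 CPM in the parental library only. Over the 24 members measured in either library, 18 were called higher and 1 lower. Among all 12245 genes measured in the same way, 12.1% were called higher and 8.29% lower. The remaining members comprised 13 with counts below 1 CPM in both libraries and 11 with 0 counts in both.

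**Figure D1:**
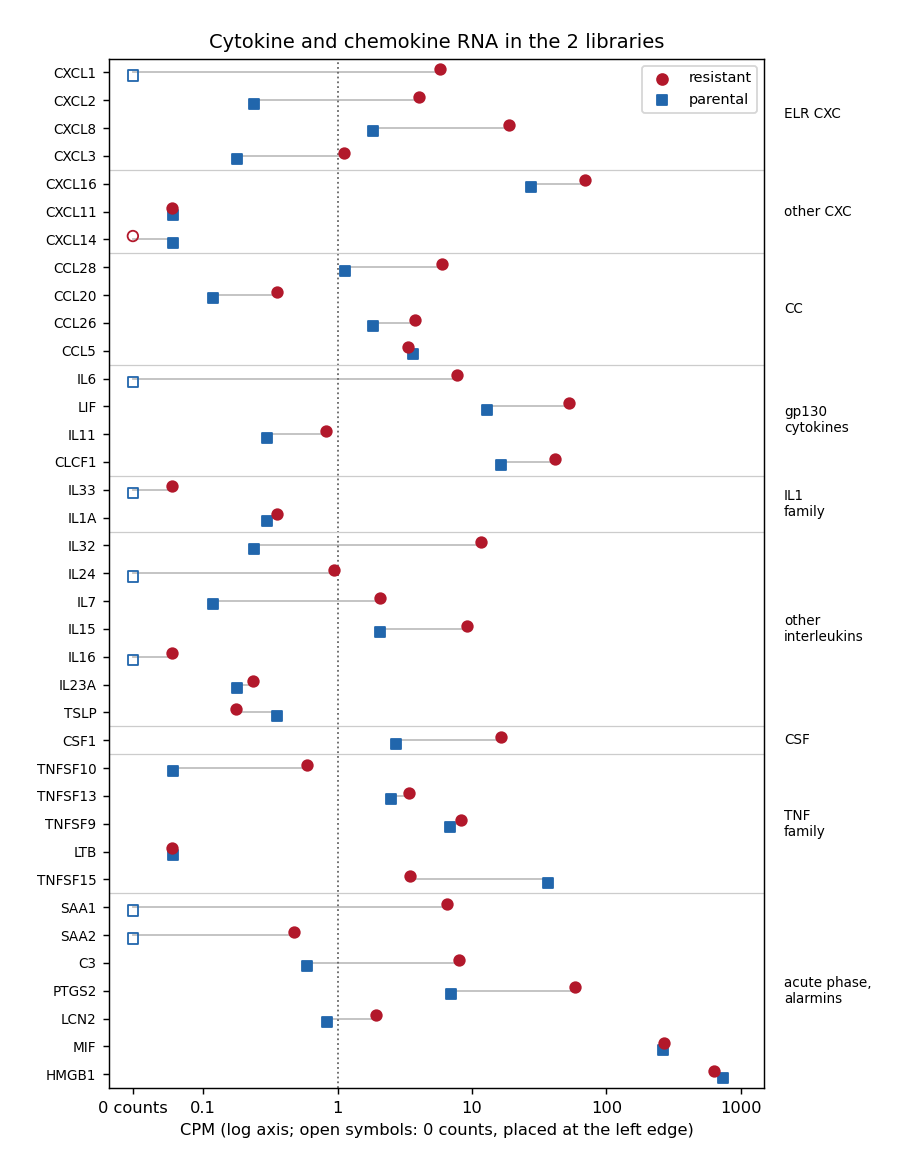
CPM (log axis) of the 37 members with at least 1 count, by role, in the resistant library (red circles) and the parental library (blue squares), with open symbols for 0 counts and a dotted line at 1 CPM. Red circles lie to the right of blue squares for most chemokines and interleukins, TNFSF15 is the reverse, and MIF and HMGB1 nearly coincide.

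The ELR chemokines, which signal through the neutrophil receptors CXCR1 and CXCR2, showed 507 counts over 6 genes in the resistant library and 38 in the parental library, a 13.2-fold difference (9.51 to 18.9). CXCL8, or interleukin 8, contributed most, with 320 counts (18.9 CPM) in the resistant and 31 (1.84 CPM) in the parental library. It was 10.1-fold higher (7.07 to 15.3). CXCL1 had 99 counts in the resistant library and 0 in the parental library. A count of 0 allows up to 3 counts, or 0.178 CPM in the parental library. Against 3 counts CXCL1 was 32.7-fold higher, and the lower end of its interval was 26.1-fold. CXCL2 had 69 and 4 counts in the resistant and parental libraries and was 15.3-fold higher (6.39 to 64.6). CXCL3 had 19 and 3 counts, a ratio of 5.53 (1.85 to 33.1). CXCL5 and CXCL6 were at 0 counts in both libraries. Of the 4 ELR genes with counts, CXCL8 alone reached 1 CPM in both libraries, and the other 3 passed the filter only through the resistant library.

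The split of counts among CXCL1, CXCL2 and CXCL3 is uncertain, because the treatment of reads that fit several genes is not stated. Their open reading frames were 93.5% identical between CXCL1 and CXCL2, 90.7% between CXCL1 and CXCL3 and 94.4% between CXCL2 and CXCL3 in GENCODE transcripts. CXCL8, at 51.7% identity to CXCL1, is distinct from them.

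These 6 genes lie in 1 block on chromosome 4. In RefSeq order the protein-coding genes run from CXCL8 through CXCL6, PF4V1, CXCL1, PF4, PPBP, CXCL5 and CXCL3 to CXCL2. The platelet chemokine genes PF4 and PF4V1 were at 0 counts in both libraries, and PPBP had 1 count in the resistant and 0 in the parental library. The difference did not extend evenly to the neighbours. RASSF6, next to CXCL8, had 12 and 52 counts in the resistant and parental libraries, a log2 ratio of -2.08. On the side of CXCL2, MTHFD2L stood at 1.01 and EPGN at 2.25 on the log2 scale, followed by EREG at -0.37 and AREG at -1.27.

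**Figure D2:**
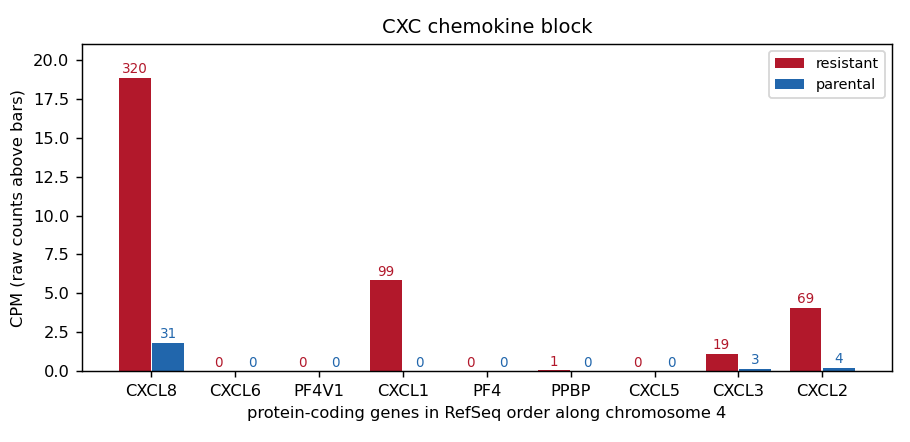
CPM of the 9 protein-coding genes of the CXC chemokine block in RefSeq order along chromosome 4, with red bars for the resistant library, blue bars for the parental library and raw counts above the bars. CXCL8, CXCL1, CXCL3 and CXCL2 are higher in the resistant library, and the other 5 genes have at most 1 count.

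The promoters of the ELR genes are shown because relatives in the same block differed in whether any RNA was found. RefSeq promoters (build GRCh38.p14) were matched for 34 of the 48 members, and the 150 bases before the first listed start are printed 5′ to 3′ for the ELR genes and IL6. Capitals mark matches to the kappaB consensus, the binding motif of NF-kB, on either strand. Where matches on both strands overlap, the capitals cover both.
CXCL8 (chr4:73740419-73740568, plus strand): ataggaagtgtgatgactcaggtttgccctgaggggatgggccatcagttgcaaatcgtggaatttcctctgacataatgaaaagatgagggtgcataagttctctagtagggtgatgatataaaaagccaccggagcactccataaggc
CXCL1 (chr4:73869243-73869392, plus strand): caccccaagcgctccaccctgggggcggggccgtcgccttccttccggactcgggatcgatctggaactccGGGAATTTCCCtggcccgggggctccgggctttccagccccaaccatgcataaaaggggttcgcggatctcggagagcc
CXCL2 (chr4:74099196-74099345, minus strand): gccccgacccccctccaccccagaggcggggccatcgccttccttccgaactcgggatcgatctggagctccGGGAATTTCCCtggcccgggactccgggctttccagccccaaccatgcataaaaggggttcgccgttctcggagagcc
CXCL3 (chr4:74038690-74038839, minus strand): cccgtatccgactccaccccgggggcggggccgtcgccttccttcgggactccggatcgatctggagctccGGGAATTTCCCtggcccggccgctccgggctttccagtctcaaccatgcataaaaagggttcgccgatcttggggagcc
CXCL5 (chr4:73998678-73998827, minus strand): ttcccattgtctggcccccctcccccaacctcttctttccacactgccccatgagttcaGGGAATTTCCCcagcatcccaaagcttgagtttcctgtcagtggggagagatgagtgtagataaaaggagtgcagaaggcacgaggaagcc
CXCL6 (chr4:73836528-73836677, plus strand): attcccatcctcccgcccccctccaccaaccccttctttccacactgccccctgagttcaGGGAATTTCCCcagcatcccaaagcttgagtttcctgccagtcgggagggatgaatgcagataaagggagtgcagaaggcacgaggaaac
IL6 (chr7:22727050-22727199, plus strand): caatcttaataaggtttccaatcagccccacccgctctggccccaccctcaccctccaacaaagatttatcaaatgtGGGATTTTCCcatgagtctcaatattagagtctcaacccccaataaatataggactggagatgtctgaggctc

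The same 10-base match, GGGAATTTCC, lay in the promoters of CXCL1, CXCL2, CXCL3, CXCL5 and CXCL6, beginning 79, 78, 79, 91 and 90 bases before the start. It was present alike in the 3 genes with counts and the 2 without. The IL6 promoter had a match, GGGATTTTCC, beginning 73 bases before its start. CXCL8 had no match to the full consensus in its window. Its printed bases do hold tggaatttcc, which differs from GGGAATTTCC in the first base only. CXCL8 also had 1 match to TGANTCA, the motif of AP-1, from 137 to 131 bases before the start. In windows of 250 bases before the start, 13 of the 34 member promoters held a kappaB match on either strand, against 5.7% of 14328 promoters of genes in the table. These 13 were CXCL1, CXCL2, CXCL3, IL6, IL32 and LCN2, which were below 1 CPM in the parental library, and CXCL5, CXCL6, CXCL10, CXCL11, CCL20, IL23A and LTB, which were below 1 CPM or at 0 in both. None of the 15 members at 1 CPM or more in both libraries was among them. Of these 15, however, CCL5, CLCF1, CSF1, CXCL16, IL15 and LIF had no RefSeq promoter here and were not scanned. Of the 18 members called higher, 10 had a scanned promoter, and 6 of these held a kappaB match. Of the 24 scanned members not called higher, 7 held one. All 6 passed the 1 CPM filter only through the resistant library, and a link between matches and RNA was not tested. CXCL8, CCL26, CCL28 and PTGS2, all called higher, had promoters without a full match. TGANTCA was found in 8 of the 34, against 5.07% of all promoters. The STAT motif TTCNNNGAA was found in 6, against 6.16%. GAAANNGAA, a core of interferon response elements, was also found in 6, against 6.02%. Some genes have several listed starts, of which the first alone was scanned, and a match is a description of letters, not of binding.

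Of the other CXC and CX3C chemokine genes only CXCL16 was measured. CXCL16, a transmembrane chemokine that can be shed and binds CXCR6, had 1173 counts (69.1 CPM) in the resistant and 467 (27.7 CPM) in the parental library, a 2.49-fold difference (2.24 to 2.78). Its exons overlap MED11 on the opposite strand in GENCODE, and MED11 had 375 and 231 counts, so without a stated strand setting the reads of these genes cannot be told apart. Of the interferon-inducible chemokine genes, CXCL10 was at 0 in both libraries and CXCL11 had 1 count in each. CXCL12, the ligand of CXCR4, and CX3CL1, or fractalkine, were at 0 in both. CXCL14 had 0 counts in the resistant library and 1 in the parental library.

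The CC chemokines gave 2 higher genes of 3 measured. CCL28, a mucosal chemokine that binds CCR10 and CCR3, had 101 and 19 counts in the resistant and parental libraries and was 5.16-fold higher (3.21 to 9.12). CCL26, or eotaxin-3, had 64 and 31 counts and was 2.03-fold higher (1.31 to 3.25), close to the threshold. CCL5, or RANTES, had 57 and 61 counts, and the interval of its ratio, 0.634 to 1.35, included 1. CCL20 had 6 and 2 counts, below 1 CPM in both. CCL2, the main attractant of monocytes, was at 0 counts in both libraries.

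Cytokines of the gp130 family, which share the signalling chain encoded by IL6ST, were called higher for the 3 members measured, of which IL6 was below 1 CPM in the parental library. IL6 had 132 counts (7.78 CPM) in the resistant library and 0 in the parental library, which makes it at least 43.6-fold higher. LIF, leukaemia inhibitory factor, had 903 and 219 counts in the resistant and parental libraries and was 4.08-fold higher (3.52 to 4.76). CLCF1, cardiotrophin-like cytokine factor 1, had 710 and 276 counts and was 2.55-fold higher (2.22 to 2.94). IL11 had 14 and 5 counts, a ratio of 2.61 with an interval from 0.945 to 9.85. IL6 exons overlap STEAP1B on the opposite strand, which had 9 and 0 counts. LIF exons overlap the antisense gene LIF-AS1, and CLCF1 exons overlap AP003419.1 on the same strand. The table lists neither of these overlapping genes.

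Among the receptor genes of this family, LIFR and IL6ST were called higher. LIFR, the receptor of LIF, had 5317 counts (313 CPM) in the resistant and 943 (56.0 CPM) in the parental library, a log2 ratio of 2.48. IL6ST had 1663 and 708 counts, a log2 ratio of 1.22. IL6R, the chain that binds IL6, had 1209 and 792 counts, and its log2 ratio of 0.60 did not pass. IL6ST and IL6R were singled out after their values were seen.

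The 3 further interleukin genes that were measured were called higher, with IL32 and IL7 below 1 CPM in the parental library. IL32, a proinflammatory cytokine without a known close family, had 198 and 4 counts in the resistant and parental libraries and was 43.7-fold higher (18.9 to 182). IL15, which sustains natural killer and memory T cells, had 155 and 35 counts and was 4.34-fold higher (3.03 to 6.53). IL7, a growth factor of lymphocytes, had 35 and 2 counts, a ratio of 14.1 (4.46 to 149). The exons of IL7 overlap ZC2HC1A on the opposite strand, which had 201 and 232 counts. IL24, a cytokine of the IL10 family, had 16 counts in the resistant library and 0 in the parental library, just under 1 CPM. It was 5.29-fold higher against 3 counts, with a lower interval end of 3.82-fold, and was not called. IL23A had 4 and 3 counts, IL16 had 1 and 0, and TSLP had 3 and 6. In the IL1 family, the alarmin gene IL1A had 6 counts in the resistant and 5 in the parental library. IL33 had 1 and 0 counts.

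CSF1, the growth factor of macrophages, was the 1 colony stimulating factor gene with counts. It had 279 counts (16.4 CPM) in the resistant and 46 (2.73 CPM) in the parental library and was 5.96-fold higher (4.39 to 8.41). CSF2, CSF3 and IL34, the second ligand of the CSF1 receptor, were at 0 counts in both libraries. The receptor gene itself, CSF1R, had 1 count in the resistant and 9 in the parental library.

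Of the 3 TNF superfamily ligands measured, 1 was called lower and 2 did not pass. TNFSF15, a ligand of the death receptor DR3, had 59 counts (3.48 CPM) in the resistant and 616 (36.6 CPM) in the parental library and was 10.4-fold lower (8.05 to 14.0). TNFSF9, the ligand of the costimulatory receptor 4-1BB, had 141 and 116 counts, a ratio of 1.2 (0.936 to 1.55). TNFSF13, or APRIL, had 58 and 42 counts, a ratio of 1.37 (0.905 to 2.09). The neighbouring gene TNFSF12 had 29 counts in the resistant and 0 in the parental library, and the readthrough gene TNFSF12-TNFSF13, which shares exons with TNFSF13, had 20 and 0. TNFSF12, which is not a member, was called higher. TNFSF10, the apoptosis-inducing ligand TRAIL, had 10 counts in the resistant library and 1 in the parental library, below 1 CPM in both. LTB had 1 count in each library, and TNF and LTA were at 0 in both. Because TNFSF15 dominated the parental counts, the 7 ligand genes together had 269 counts in the resistant and 776 in the parental library.

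**Figure D3:**
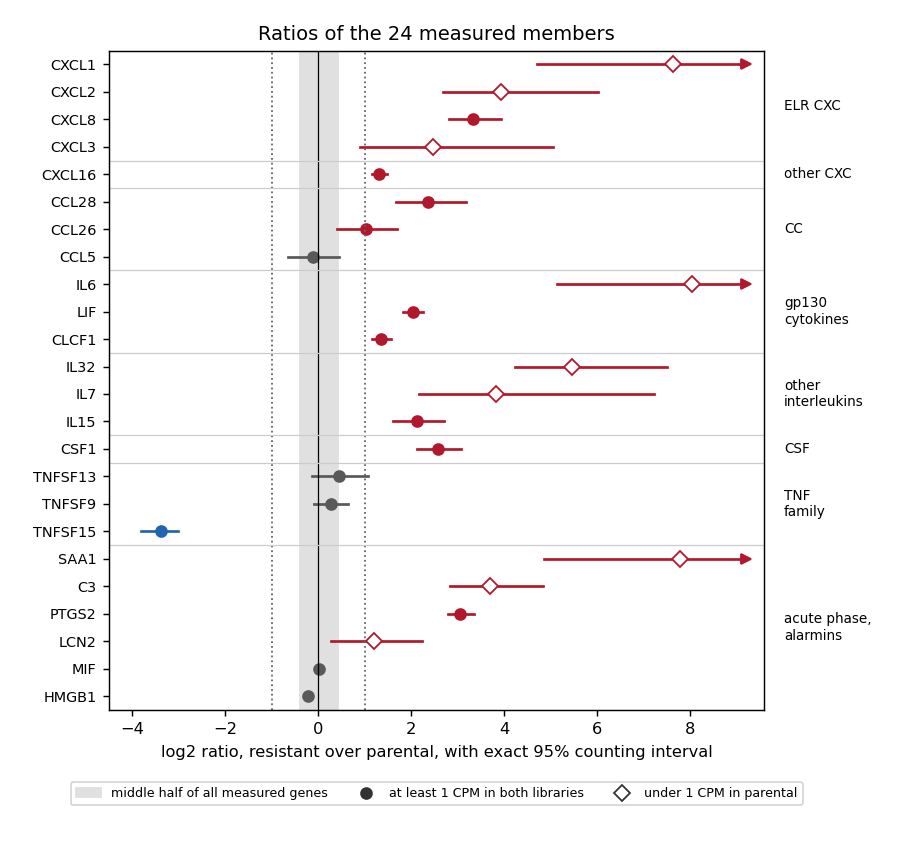
The log2 ratio (resistant over parental) of the 24 measured members with exact 95% counting intervals, by role, in red for genes called higher, blue for lower and grey for neither. Open diamonds are genes under 1 CPM in the parental library, arrows mark intervals with no upper end, dotted lines are at 2-fold and the grey band spans the quartiles of all measured genes, -0.39 to 0.43, which only MIF, HMGB1, CCL5 and TNFSF9 fall within.

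Acute-phase and inflammatory effector genes were divided. SAA1, an acute-phase apolipoprotein, had 110 counts (6.48 CPM) in the resistant library and 0 in the parental library, which makes it at least 36.4-fold higher. SAA2 had 8 and 0 counts. The open reading frames of SAA1 and SAA2 were 97.0% identical, so their split is uncertain. C3, the central complement component, had 136 and 10 counts in the resistant and parental libraries and was 12.9-fold higher (7.11 to 28.8). LCN2, an iron-sequestering lipocalin, had 33 and 14 counts and was 2.29-fold higher (1.22 to 4.73). MIF and HMGB1 are released as danger signals but are expressed constitutively in most cells. MIF had 4538 counts (267 CPM) in the resistant and 4422 (263 CPM) in the parental library, a ratio of 1.02 (0.976 to 1.06). Its exons overlap MIF-AS1 on the opposite strand and AP000350.4 on the same strand. HMGB1 had 10703 and 12373 counts and was 1.17-fold lower (1.14 to 1.20), short of the threshold.

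PTGS2, the enzyme that begins prostaglandin synthesis from arachidonic acid, had 993 counts (58.5 CPM) in the resistant and 118 (7.01 CPM) in the parental library and was 8.31-fold higher (6.89 to 10.2). Other prostaglandin genes did not share this direction as a list. Of 8 measured, 1 was called higher and 3 lower, against 12.1% and 8.29% of all measured genes. The median log2 ratio of the 8 was -0.45, against 0.00 over all measured genes. Of the 6 at 1 CPM or more in both libraries, 1 was higher and 1 lower, beside 7.7% and 6.61% of all genes in that set. The phospholipase gene PLA2G4A, whose enzyme releases arachidonic acid, was higher at 270 and 132 counts (log2 ratio 1.02). HPGD, which encodes the prostaglandin-degrading enzyme, was lower, with 12 counts in the resistant and 253 in the parental library (log2 ratio -4.35). PTGER4, a receptor of prostaglandin E2, was lower at 308 and 1816 counts (log2 ratio -2.57). The prostaglandin E synthase gene PTGES3, the most abundant of the list, was at -0.13. The synthase genes PTGES (-0.67) and PTGES2 (-0.23), named after their values were seen, did not pass. The third lower gene was the prostaglandin transporter SLCO2A1, at 4 and 37 counts, named after its values were seen. HPGD and SLCO2A1 were below 1 CPM in the resistant library and passed the filter only through the parental library.

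Levels can be compared between genes only per transcript length. The authors' deposited normalized log2 values allow this approximately. After 2 was raised to the value and 1 subtracted, the counts per unit of level differed between the libraries by a constant factor (within 2%) for 91.9% of 9317 genes. Across those genes they followed the length of the longest GENCODE transcript (Spearman rho = 0.86, a description across genes). By this length-scaled level, MIF (740 in the resistant and 719 in the parental library), HMGB1 (189 and 220) and CXCL16 (35.8 and 14.0) exceeded the median measured gene, at 10.7 in each library, in both. A further 6 members exceeded it in the resistant library only. These were CLCF1 (24.7 in the resistant and 9.67 in the parental library), SAA1 (19.3 and 0), IL32 (14.0 and 0.256), LIF (13.6 and 3.36), PTGS2 (13.1 and 1.57) and CXCL8 (12.2 and 1.18). All other members, including IL6 at 7.71 and CXCL1 at 5.87 in the resistant library, stayed below the median gene in both libraries.

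**Figure D4:**
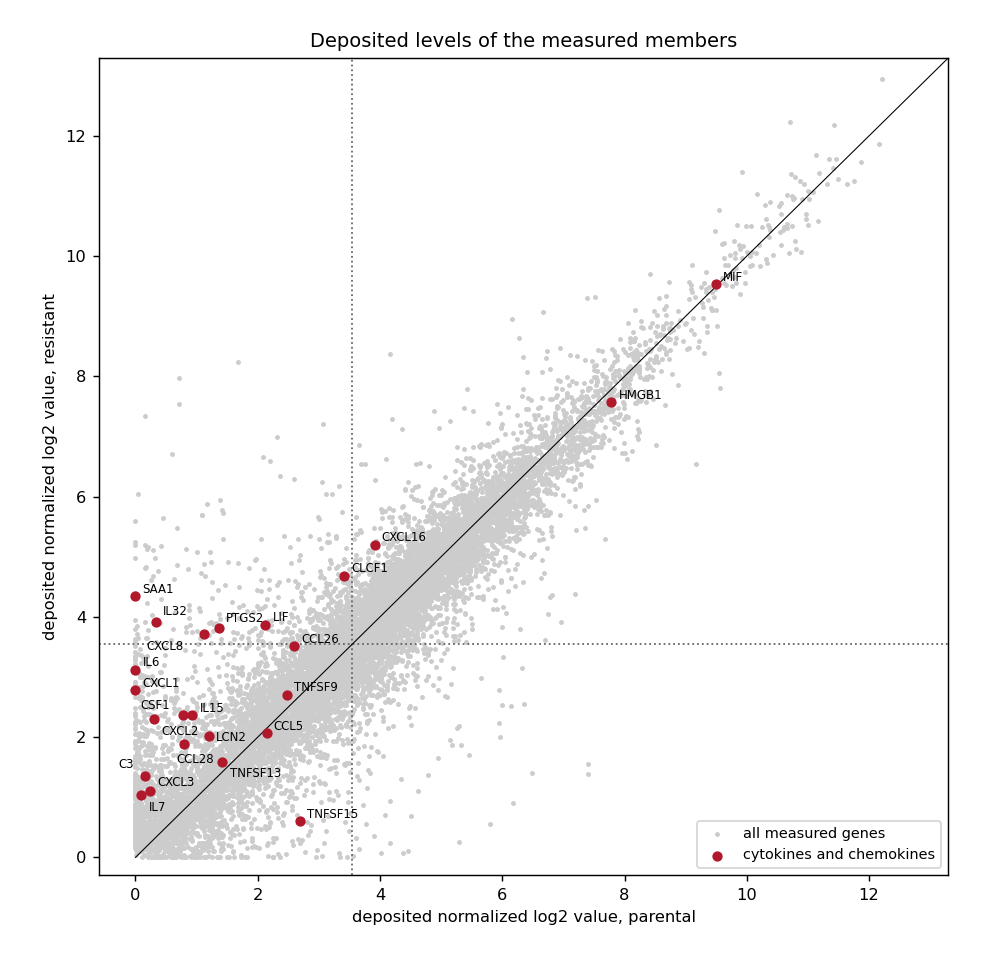
The authors' deposited normalized log2 value of each measured gene in the parental library (x axis) and the resistant library (y axis), with the 24 measured members in red, all measured genes in grey, the line of equality and dotted lines at the median gene. Of the members, 9 lie above the median line of the resistant library and 3 to the right of that of the parental library.

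A difference of 1 in the deposited log2 values was reached by 14 of the 24 measured members on the higher side and by TNFSF15 on the lower side, against 7.56% and 4.83% of all measured genes. Of the 14, C3, CXCL1, CXCL2, IL32, IL6 and SAA1 passed the filter only through the resistant library, so they support nothing about the members. The rest, at 1 CPM or more in both libraries, were CXCL8, CXCL16, CCL28, LIF, CLCF1, IL15, CSF1 and PTGS2. The 4 that fell short, CCL26, CXCL3, IL7 and LCN2, differed by 0.82 to 0.95. Because 1 is added before the logarithm, these values understate the ratio of low genes.

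Of 63 receptor and binding-partner genes listed, 28 were measured, with 7 called higher, 6 lower and a median log2 ratio of 0.15, against 12.1% higher and 8.29% lower over all measured genes. Of the 7 higher genes, 5 were below 1 CPM in the parental library. Among the 18 at 1 CPM or more in both libraries, 2 were higher and 2 lower, beside 7.7% and 6.61% of all genes in that set. Besides LIFR, ACKR3, a scavenging receptor of CXCL11 and CXCL12, had 122 counts in the resistant library and 0 in the parental library. TNFRSF10D, a decoy receptor of TRAIL, had 137 and 1 counts. TNFRSF1B, the second TNF receptor, was lower, with 326 counts (19.2 CPM) in the resistant and 2015 (120 CPM) in the parental library. The receptors of the ELR chemokines were nearly absent, with CXCR1 at 0 in both libraries and CXCR2 at 2 counts in the resistant and 1 in the parental library. CXCR4 had 0 counts in the resistant library and 39 in the parental library. CXCR1, CXCR2 and CXCR4 were named after their values were seen.

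**Figure D5:**
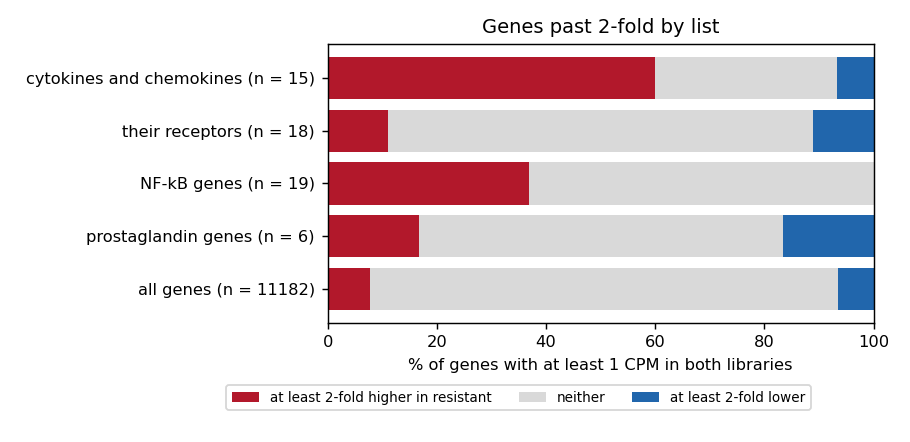
Share of genes called at least 2-fold higher in the resistant library (red), neither (grey) and at least 2-fold lower (blue), among genes with at least 1 CPM in both libraries. Of the 15 cytokine and chemokine genes, 9 were higher and 1 lower, of the 18 receptor genes 2 and 2, of the 19 NF-kB genes 7 and 0, and of all 11182 genes 7.7% and 6.61%.

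Subunits and feedback genes of the NF-kB pathway, which controls many of these cytokines, were all measured. Of 22 genes, 10 were called higher and 0 lower, with a median log2 ratio of 0.94, against 12.1% and 8.29% of all measured genes. Of these 10, 3 were below 1 CPM in the parental library. Of the 19 at 1 CPM or more in both libraries, 7 were higher, beside 7.7% of all genes in that set. TNFAIP3, which encodes the inhibitor A20, had 2724 counts (160 CPM) in the resistant and 565 (33.6 CPM) in the parental library, a log2 ratio of 2.26. BIRC3 (3.03), NFKBIE (2.72) and BCL3 (1.49) were higher as well on the log2 scale. MAP3K14, the most abundant of the list, was at 0.88 and did not pass. Of the 5 subunit genes, named after their values were seen, RELB was called higher, with 308 counts in the resistant and 148 in the parental library (log2 ratio 1.04). NFKB2 (0.99), RELA (0.27), NFKB1 (0.15) and REL (-0.33) did not pass.

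Among 94 related cytokine, complement and acute-phase genes outside the member list, 38 had any counts and 9 were measured, with 5 called higher and 0 lower, against 12.1% and 8.29% of all measured genes. Of the 5 higher genes, 4 passed the filter only through the resistant library. Of the 5 at 1 CPM or more in both libraries, 1 was higher. That gene was IL18, an inflammasome-processed cytokine and the most abundant of the list, at 1863 counts in the resistant and 788 in the parental library (log2 ratio 1.23). CFB, complement factor B, had 275 and 12 counts, and IL36RN, an antagonist of the IL36 receptor, had 105 and 5. IL1B had 4 and 1 counts, and the interferon genes IFNB1, IFNL1, IFNL2 and IFNL3 were at 0 in both, named after their values were seen.

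Markers of other cell types were compared as well. Of 10 leukocyte markers 3 were measured, 1 higher and 2 lower, and the list summed to 34.3 CPM in the resistant and 88.3 CPM in the parental library, mostly CD68. CD3D, CD3E and MS4A1 were at 0 in both libraries, and PTPRC had 7 counts in the resistant and 21 in the parental library. CD14, the 1 called higher, had 33 counts in the resistant and 5 in the parental library, where it was below 1 CPM. The 7 fibroblast markers summed to 14.7 and 20.7 CPM, mostly COL1A1, with DCN and THY1 at 0 in both. Of 4 endothelial markers, CDH5 had 495 and 5 counts, while KDR was at 0 in both and PECAM1 and VWF had at most 1 count in either library, so the sum over the list, 29.2 CPM in the resistant and 0.356 CPM in the parental library, was nearly all CDH5. The part of these marker genes in the cytokine differences was not tested.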

How the data were processed

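RNA sequencing of 1 resistant and 1 parental library was analysed. FastQC, the aligner STAR and the builds GRCh38 and hg19 are named, without their settings, per the submitters' processing notes. The column headed PR_S2 was taken as the resistant library, whose description is HPR_S2. The counter, annotation, strand setting and treatment of ambiguous reads are not given in the sources used here. The authors deposited raw counts per gene symbol and, per the file headers, a normalized log2 value, whose method is not stated. Members and gene lists were chosen with earlier results of these data known.

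Counts were scaled by TMM (edgeR 4.0.16, R 4.3.3). A gene was measured at 1 CPM or more in at least 1 library. Log2 ratios added 0.5 to each count. Exact conditional binomial 95% intervals (Clopper-Pearson, scipy 1.17.1) used unmodified counts. A call needed a ratio of 2-fold and an interval that excluded 0 on the log2 scale. Folds against 0 counts used 3 counts in that library. No test and no p-value was computed. The procedure was tested before use on simulated counts that held counting error only, so variation between libraries was not covered. Every member with counts is named. From each other list, the 4 called genes with the largest log2 ratio in size at 5 CPM or more and the most abundant gene are named. Other scalings (DESeq2 1.42.0, total counts), filters and added counts were tried. Promoters came from RefSeq (GRCh38.p14) and transcripts from GENCODE.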

Additional observations from a re-analysis of the deposited data

How the results depend on the processing

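With DESeq2 size factors, total counts, or 1 or 0.25 added to each count, all 19 called members kept their calls. The 19 called members became 14 of 17 measured with at least 5 CPM. They became 15 with the deposited log2 values, 16 with the whole interval beyond 2-fold and 15 at 4-fold, each of 24 measured. With no filter 37 members were measured, and 3 more (IL24, SAA2 and TNFSF10) were called. Over all genes in these settings, in this order, 9.38%, 7.56%, 8.96%, 6.32% and 11.2% were called higher. The shares called lower were 7.01%, 4.83%, 5.35%, 2.93% and 7.23%. TNFSF15 stayed the 1 lower member in each of these settings. The median log2 ratio of the 24 measured members was 2.24, but 9 of them passed the filter only through the resistant library. Over the 15 members at 1 CPM or more in both libraries it was 1.32, against -0.02 over all genes in that set. The median of 2.24 became 1.57 over the 37 members with counts and no filter. It was 2.37 at a minimum of 5 CPM, and 1.24 when the deposited log2 values were used. Among CC chemokines 1 gene passed with the deposited log2 values, CCL28. Depth limits the members under 1 CPM: 3 counts correspond to 0.177 CPM in the resistant and 0.178 CPM in the parental library, so a member at 0 was not detectable at this depth rather than absent. No replicate could be left out.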
